A study of Mus musculus with 21 samples.

Results

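Mouse embryonic stem cells (ESCs) treated with 80 mM sodium lactate were compared with ESCs of the same line given none. The comparison takes 6 of the 21 RNA-seq libraries of the series, the 3 labelled 80 mM and the 3 labelled 0 mM, and runs over every gene name of the lactate expression table, with entries that share a name summed. All 6 libraries come from the line OG2, carry the cell type label embryonic stem cells, and differ in the label for treatment, which reads 80mM sodium lactate in 1 group and WT in the 0 mM group. The remaining group of the table, 3 libraries given 60 mM, shares the 0 mM libraries and was used for the common estimate of the spread and for values set beside those at 80 mM. Total RNA was extracted with Trizol and sequenced on a MiSeq from TruSeq libraries. The labels used here give neither the time in lactate nor the culture medium, and do not say that the numbered libraries of a group came from separate cultures, so the p-values measure the spread between these libraries, which may be technical. No group received another sodium salt or an osmolyte, so lactate, sodium and the osmotic load of the salt cannot be told apart.

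Lactate is the end product of glycolysis and enters and leaves cells with a proton through monocarboxylate carriers. Inside the cell lactate dehydrogenase turns it back into pyruvate, and lactyl groups derived from it can be placed on lysines of histones and other proteins. Cultures of mouse ESCs contain rare cells, called two-cell-like cells (2CLCs), that switch on genes otherwise expressed at the time the mouse embryo activates its genome. Those genes include the Zscan4 family, whose products protect telomeres, and several other gene families that lie in repeated clusters.

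Of 55291 gene names in the table, 13271 had at least 1 FPKM (fragments per kilobase of transcript, scaled to the library's size) in at least 3 of the 9 lactate libraries and were tested with limma on log2(FPKM + 1). At an adjusted p under 0.05, 3977 genes were higher at 80 mM, 30% of those tested, and 3064 were lower, 23.1%. Together 53.1% of the genes tested passed, so every count of list members below has to be read against that share. Most of these differences were small. The median size among the genes that passed was 0.38 on the log2 scale, and 8.14% of them differed by at least 1, of which 436 genes (3.29% of those tested) were higher and 137 (1.03%) lower. The 3 libraries of 1 group all lay above the 3 of the other for 33.6% of genes with the 80 mM group higher and for 26.4% with it lower. All log2 values below are differences between group means of log2(FPKM + 1), and the added 1 shrinks the differences of genes near or below 1 FPKM.

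The libraries were alike in the sums they gave. Their FPKM values summed to between 396792 and 409131, and 12967 to 12977 genes reached 1 FPKM in the 80 mM libraries against 12384 to 12437 in the 0 mM libraries. Across genes, log2 values of a 0 mM and an 80 mM library correlated at 0.965 to 0.968, and libraries within a group at 0.991 to 0.994. The number of reads behind a value is unknown. All 10 ESC markers were above 1 FPKM in every library, 5 of them rose and 5 fell, and their summed level was 2997 to 3075 FPKM at 0 mM and 3193 to 3289 FPKM at 80 mM. Of 10 fibroblast markers, which feeder cells would bring, 7 were below 1 FPKM in every library, and the sum of all 10 was 2.11 to 2.44 FPKM at 0 mM and 5.67 to 6.17 FPKM at 80 mM. Most of that difference lay in Thy1, whose values are given below. Of the 10, 5 had the higher mean at 80 mM, so the markers did not rise as a set. In RNA from a whole culture, more cells of a type and more RNA per cell cannot be told apart.

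**Figure D1:**
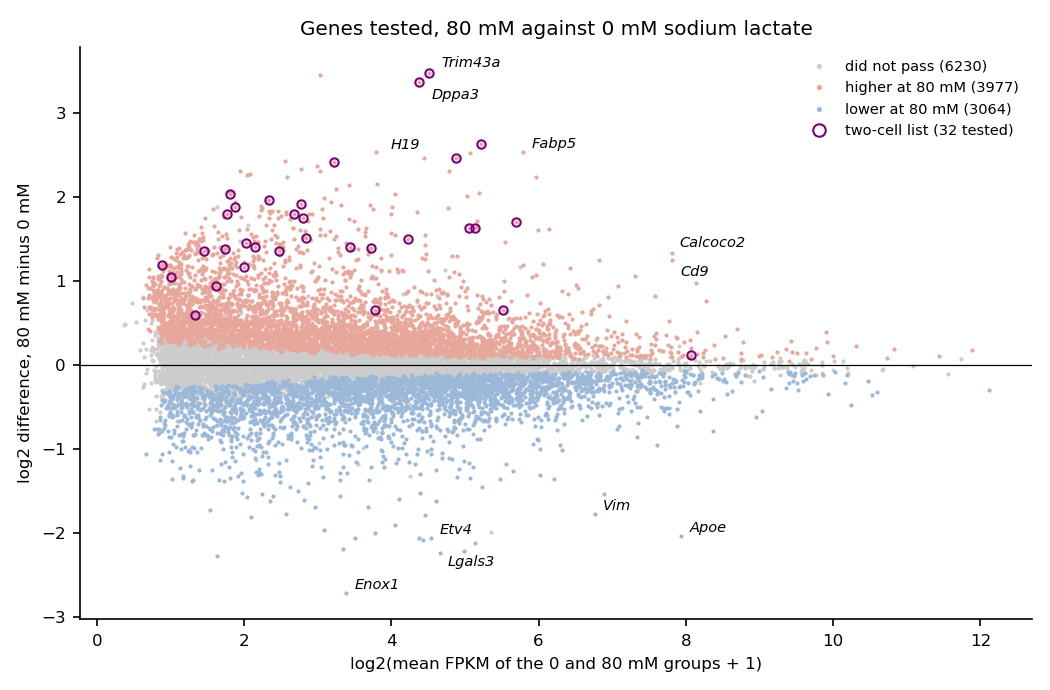
Log2 difference between 80 mM and 0 mM for the 13271 genes tested (vertical axis) against the mean level of the 2 groups, as log2(FPKM + 1), on the horizontal axis. Each dot is a gene, coloured by its call, and open circles mark the 32 tested members of the two-cell list, which all lie above 0.

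Genes of the two-cell stage rose together, and Trim43a and Dppa3 among them had the largest increases of the genes named here. The list has 37 members, of which 36 stand in the table and 32 were tested. All 32 were higher at 80 mM, but 11 of them had under 1 FPKM in at least 1 control library, so the count is given again over the 21 with at least 1 FPKM in each 0 mM library: 21 of 21 were higher at 80 mM, with a median of 1.63. Over all 11890 genes with that level at 0 mM, 27.5% were higher and 25.7% lower, with a median of 0.01. Of the 21 two-cell genes, 15 belong to repeated families, and how reads were shared among copies is uncertain. The summed level of the 36 members was 419 to 421 FPKM in the 0 mM libraries and 871 to 912 FPKM in the 80 mM libraries. The list was chosen with earlier results of these data known.

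The Zscan4 copies lie in a cluster on chromosome 7. Zscan4f (chr7:11397915-11402318, GRCm38) was at 25.7, 23.4 and 20.8 FPKM at 0 mM and 75.7, 82.4 and 76.7 FPKM at 80 mM (log2 difference 1.71 ± 0.071 SE, adjusted p = 7.43e-08). Zscan4c was at 16.4, 16.1 and 15.6 FPKM at 0 mM and 49.9, 53.7 and 52.2 FPKM at 80 mM (log2 difference 1.63 ± 0.045 SE, adjusted p = 5.60e-09). No 80 mM library came near the 0 mM range for either gene, and the 60 mM libraries lay between, at 33.2, 32.9 and 35.9 FPKM for Zscan4c. By mean, Zscan4d rose from 6.24 ± 0.72 FPKM at 0 mM to 18.1 ± 2.2 FPKM at 80 mM (SD, n = 3), and Zscan4a rose least of the family, by 0.66. The copies are nearly identical in sequence, so how the reads were shared among them is uncertain.

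The start of the gene shows how alike the copies are and how they differ from a two-cell regulator with a promoter rich in CG. The 250 bases upstream of the RefSeq start are printed 5′ to 3′ on the gene's strand (GRCm38.p6), with each CG dinucleotide in capitals.
Zscan4c, chr7:11005495-11005744, plus strand: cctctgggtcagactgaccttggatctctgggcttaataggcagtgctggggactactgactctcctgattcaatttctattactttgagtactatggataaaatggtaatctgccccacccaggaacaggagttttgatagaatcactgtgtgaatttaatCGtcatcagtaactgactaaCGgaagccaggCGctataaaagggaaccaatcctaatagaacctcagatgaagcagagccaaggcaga
Zscan4f, chr7:11397665-11397914, plus strand: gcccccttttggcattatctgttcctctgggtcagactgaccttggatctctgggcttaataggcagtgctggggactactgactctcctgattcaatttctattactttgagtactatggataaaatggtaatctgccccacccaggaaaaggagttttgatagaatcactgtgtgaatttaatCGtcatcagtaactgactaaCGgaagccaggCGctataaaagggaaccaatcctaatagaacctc
Nelfa, chr5:33936272-33936521, minus strand: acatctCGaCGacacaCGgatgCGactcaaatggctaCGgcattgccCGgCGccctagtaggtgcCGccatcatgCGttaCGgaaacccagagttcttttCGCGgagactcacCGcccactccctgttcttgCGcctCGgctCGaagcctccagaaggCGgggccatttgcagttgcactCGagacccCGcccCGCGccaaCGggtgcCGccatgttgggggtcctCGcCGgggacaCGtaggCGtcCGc
Shifted by 23 bases, the Zscan4c and Zscan4f windows were identical at 226 of 227 positions. Each holds 3 CG dinucleotides, against 28 in the Nelfa window. Counted from 250 bases before to 50 after the start, the median promoter of 17 matched two-cell genes held 2 CG, against 21 for the 9368 promoters of tested genes that RefSeq matched and 9 for the 228 of genes that rose by at least 1. The DUX motif was searched on both strands as 1 short pattern with no mismatch allowed. It was in none of the 17 promoters and in 1 of the 9368, or 0.0107%. A pattern this rare was likely to be absent from 17 promoters, so the search cannot tell whether they hold DUX sites.

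Other repeated families followed the same direction. Trim43a, a member of a family of RING-finger genes, was at 3.44, 2.17 and 2.74 FPKM at 0 mM and 41.3, 40.5 and 40.7 FPKM at 80 mM (log2 difference 3.48 ± 0.10 SE, adjusted p = 7.14e-09). Pramel6 and Pramel7, which belong to the Prame family active in early embryos and in naive ESCs, rose by 2.64 and 2.46. Pramel6 was at 8.59, 10.1 and 9.22 FPKM at 0 mM and 63.3, 67.2 and 58.5 FPKM at 80 mM, with no overlap between the groups. The Usp17l deubiquitinase copies were lower in level, with Usp17le at 4.82, 4.91 and 4.998 FPKM at 0 mM and 15.3, 15.5 and 13.3 FPKM at 80 mM. Tcstv3, another gene of the two-cell cluster on chromosome 13, was at 1.54, 2.27 and 2.81 FPKM at 0 mM and 8.97, 10.4 and 9.65 FPKM at 80 mM (log2 difference 1.75 ± 0.14 SE, adjusted p = 4.73e-06). Of 22 tested members in repeated families, 15 had at least 1 FPKM in each 0 mM library and all 15 rose, with a median of 1.64.

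Among single-copy members, Dppa3 had the largest rise. Dppa3, also called Stella, is a maternal factor that guards DNA methylation states in the egg and marks naive ESCs and germ cells. It was at 2.51, 2.58 and 2.83 FPKM at 0 mM, 21.4, 22.7 and 21.3 FPKM at 60 mM and 36.1, 39.1 and 34.8 FPKM at 80 mM (log2 difference 3.37 ± 0.058 SE, adjusted p = 6.67e-10). Every treated library lay far above every control, and the 60 mM libraries lay between the other two groups. Sp110, a nuclear body gene, was at 2.37, 1.94 and 1.52 FPKM at 0 mM and 15.7, 14.2 and 14.0 FPKM at 80 mM, and Arg2, the mitochondrial arginase, at 1.06, 0.926 and 1.18 FPKM at 0 mM and 6.52, 7.57 and 6.95 FPKM at 80 mM. Nelfa, a subunit of the negative elongation factor that acts on two-cell genes, rose less, from 34.3 ± 0.43 FPKM at 0 mM to 54.9 ± 0.60 FPKM at 80 mM (SD, n = 3, log2 difference 0.66). Zfp352 reached 4.48, 4.28 and 4.14 FPKM from 0.488, 0.503 and 0.554 FPKM, so it passed the filter only through treated libraries. Dux (listed as Duxf3), the transcription factor that can start the two-cell programme, stayed below the filter at 0.607, 0.388 and 0.447 FPKM at 0 mM and 1.26, 0.798 and 1.04 FPKM at 80 mM and was not tested.

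**Figure D2:**
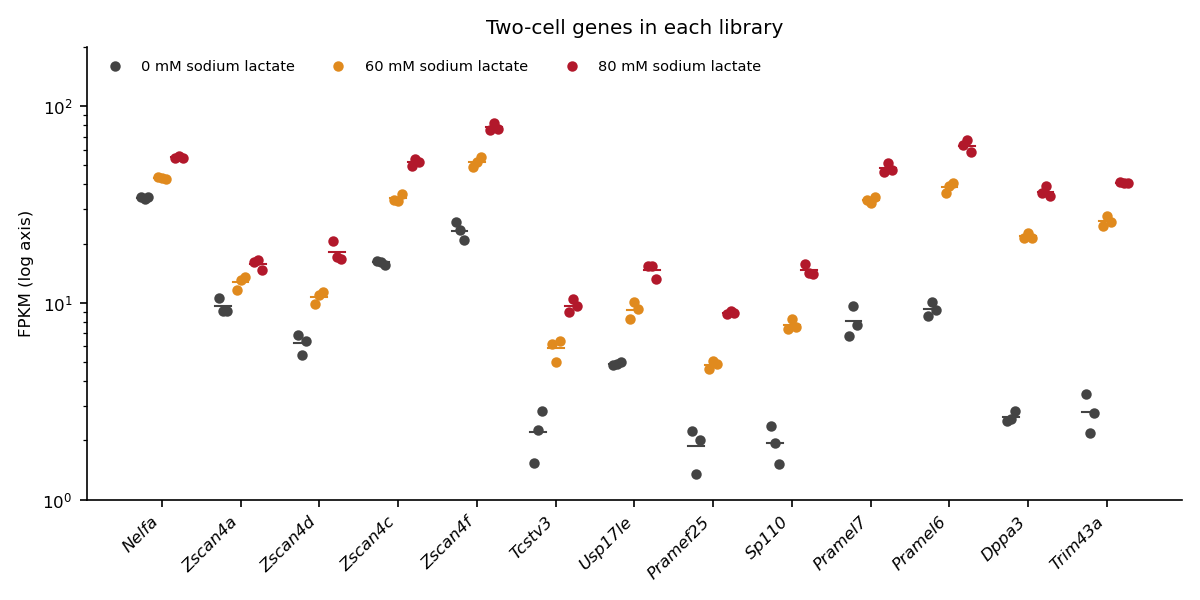
FPKM of 13 two-cell genes in each library on a log axis, with points for the 3 libraries of each dose and a bar for their mean. For each gene shown the 80 mM libraries lie above the 0 mM libraries, with Dppa3 moving from 2.51 to 2.83 FPKM up to 34.8 to 39.1 FPKM.

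For Zscan4c and Usp17le these levels lay far below those of the series' own 2CLC libraries. Those libraries stand in a table normalized separately and are set here side by side only. Zscan4c averaged 51.9 FPKM at 80 mM and 5907 FPKM in 2CLCs, and Usp17le 14.7 and 1467 FPKM. Dppa3 and Trim43a stood the other way round: Dppa3 averaged 36.7 FPKM at 80 mM and 9.12 FPKM in 2CLCs, and Trim43a 40.8 and 8.93 FPKM. The means of Pramel7 were 48.5 FPKM at 80 mM and 38.5 FPKM in 2CLCs. The ESC levels of the 2CLC table are not given here, so these values do not show how the genes differ between 2CLCs and ESCs.

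Genes defined in the cell-state table as higher in 2CLCs than in ESCs, by at least 1 (log2) at an adjusted p under 0.05, were followed at 80 mM. They hold 28 of the 32 tested two-cell genes, and 1 of the 32 is among the genes lower in 2CLCs. Of 2046 such genes, 886 were tested and 613 had at least 1 FPKM in each 0 mM library. Of those 613, 338 were higher at 80 mM and 86 lower, with a median of 0.29, against 27.5% and 25.7% over all genes of that level. With a minimum of 2 in the definition, 213 of 310 were higher and 26 lower. With a minimum of 1, genes higher in epiblast stem cells (EpiSCs) than in ESCs gave 459 of 1123 higher and 225 lower. With a minimum of 2 they gave 107 of 221 and 41. Genes higher in mouse embryonic fibroblasts (MEFs) gave 790 of 1818 higher and 312 lower at a minimum of 1, and 318 of 682 and 136 at 2. Genes at least 1 lower in 2CLCs than in ESCs gave 836 of 4084 higher and 1327 lower. The same definition gave 290 of 1209 higher and 487 lower for EpiSCs, and 598 of 3155 and 1284 for MEFs. Genes at least 2 lower in 2CLCs than in ESCs gave 105 of 638 higher and 336 lower. Those at least 2 lower in EpiSCs gave 96 of 413 higher and 208 lower, and in MEFs 163 of 880 higher and 473 lower.

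Outside the two-cell list, Fabp5, Bhmt, P4ha2 and the imprinted genes H19 and Peg10 were among the largest increases. Of the 15 largest rises, 6 are on the two-cell list. The genes higher in 2CLCs than in ESCs hold 11 of the 15, against 6.68% of all genes tested, and 1, Peg10, is among the genes lower in 2CLCs. Fabp5, a fatty acid carrier, was at 15.7, 14.2 and 15.7 FPKM at 0 mM and 94.7, 93.5 and 91.3 FPKM at 80 mM (log2 difference 2.54 ± 0.047 SE, adjusted p = 6.67e-10). Bhmt, which remakes methionine from betaine, was at 2.82, 3.12 and 3.26 FPKM at 0 mM and 24.7, 21.1 and 22.04 FPKM at 80 mM. For both genes the lowest 80 mM library lay far above the highest 0 mM library. P4ha2, a collagen prolyl hydroxylase subunit, rose 5.52-fold in mean FPKM, and Gstm5, a glutathione transferase, 8.10-fold. Eif4a3l1 and Eif4a3l2, copies related to an RNA helicase of the exon junction complex, rose by 2.31 and 2.16. Commd1b was uneven, at 0, 0.327 and 0 FPKM at 0 mM and 11.3, 1.75 and 3.78 FPKM at 80 mM, and at 60 mM 1 of 3 libraries stood apart at 5.16 FPKM. It passed the filter only through treated libraries, and with no filter it missed the threshold (adjusted p = 0.0604, limma).

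The imprinted RNA H19 was at 6.46, 4.38 and 6.05 FPKM at 0 mM and 43.9, 34.3 and 29.5 FPKM at 80 mM (log2 difference 2.47 ± 0.15 SE, adjusted p = 8.91e-07), with no overlap between the groups but a wide spread at 80 mM. Peg10, a gene derived from a retrotransposon and expressed from the paternal allele, was at 12.3, 11.6 and 11.8 FPKM at 0 mM and 52.9, 54.1 and 47.3 FPKM at 80 mM (log2 difference 2.02 ± 0.051 SE, adjusted p = 4.29e-09). Sgce, which shares a promoter region with Peg10, rose by 1.36. The imprinted list as a whole was split, with 7 of 21 members of at least 1 FPKM at 0 mM higher and 9 lower. Mest fell from 45.4 ± 0.36 FPKM at 0 mM to 24.2 ± 1.2 FPKM at 80 mM (SD, n = 3), Impact fell by 0.87, and Meg3 fell by 0.72.

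The 6 largest rises in FPKM held abundant genes that differed little on the log2 scale, Eef1a1 (0.12), a translation elongation factor, and the ribosomal protein gene Rpl13a (0.23), beside 4 others. Cd9, a tetraspanin of the cell surface, was at 127, 132 and 135 FPKM at 0 mM and 309.7, 328 and 309 FPKM at 80 mM (log2 difference 1.26 ± 0.034 SE, adjusted p = 5.60e-09). Calcoco2, an autophagy receptor, was at 123, 128 and 126 FPKM at 0 mM and 326, 328 and 305 FPKM at 80 mM. The neuronal-type glucose transporter Slc2a3 and the pluripotency gene Dppa5a completed this group, with rises of 0.98 and 0.40.

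The largest decreases included Enox1, Lgals3 and Apoe. Enox1, a cell surface oxidase of the NADH type, was at 17.7, 16.8 and 17.0 FPKM at 0 mM and 1.77, 1.80 and 1.74 FPKM at 80 mM (log2 difference -2.71 ± 0.077 SE, adjusted p = 6.99e-09). Lgals3, which encodes galectin-3, was at 41.1, 39.4 and 41.2 FPKM at 0 mM and 7.30, 8.38 and 7.73 FPKM at 80 mM. Apoe, the lipid-carrying apolipoprotein E (chr7:19696109-19699188), was at 382, 386 and 409 FPKM at 0 mM and 95.2, 92.9 and 96.1 FPKM at 80 mM (log2 difference -2.04 ± 0.045 SE, adjusted p = 3.04e-09), and Apoe was also among the 6 largest falls in FPKM, with Hmga1, Eno1, Ftl1, Tuba1b and Gapdh. For all 3 genes the groups lay far apart. Vim, the intermediate filament vimentin, fell from 167 ± 8.2 FPKM at 0 mM to 48.1 ± 1.4 FPKM at 80 mM (SD, n = 3). Ddx58, which encodes the RNA sensor RIG-I, fell by 2.06, and the epoxide hydrolase Ephx2 fell by 2.18. Of the 15 largest falls, 9 are among the genes lower in 2CLCs than in ESCs, against 31.6% of all genes tested, and 1, Ephx2, is among those higher in 2CLCs. Ywhaq-ps3, a pseudogene on the same list, rested on libraries that disagreed at 60 mM (35.8, 31.6 and 7.62 FPKM).

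Core pluripotency genes changed in both directions, with log2 differences from -1.22 to 0.74. The core list had 6 of 19 members higher and 12 lower, with a median of -0.21, against 30% and 23.1% of all genes. Pou5f1 was at 739.8, 724 and 755 FPKM at 0 mM and 671, 670.2 and 684 FPKM at 80 mM (log2 difference -0.13 ± 0.021 SE, adjusted p = 5.40e-04), a small difference with no overlap. Nanog was at 238, 245 and 227 FPKM at 0 mM and 285, 294 and 299 FPKM at 80 mM and Sox2 at 183, 186 and 186 FPKM at 0 mM and 231, 235 and 246 FPKM at 80 mM, and both rose. Lin28a, an RNA-binding protein that blocks let-7 maturation, fell from 47.1 ± 1.4 FPKM at 0 mM to 19.7 ± 0.46 FPKM at 80 mM (SD, n = 3, log2 difference -1.22). Myc fell by 0.99 and Utf1 fell by 0.72.

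Markers of the naive state were divided, 17 of 31 higher and 13 lower, with a median of 0.10. Dppa3 led the rises, and Klf4 was at 62.6, 62.0 and 65.1 FPKM at 0 mM and 94.9, 93.0 and 97.0 FPKM at 80 mM (log2 difference 0.58 ± 0.034 SE, adjusted p = 7.20e-07). Gbx2, a homeobox gene of naive cells, fell from 12.4 ± 0.99 FPKM at 0 mM to 2.48 ± 0.59 FPKM at 80 mM (SD, n = 3). Nr0b1, which encodes the nuclear receptor DAX1, was at 53.7, 54.0 and 53.7 FPKM at 0 mM and 19.5, 19.9 and 17.7 FPKM at 80 mM (log2 difference -1.45 ± 0.054 SE, adjusted p = 3.60e-08), with the groups well apart. Tdh, the threonine dehydrogenase on which mouse ESCs depend, fell by 0.72 and Tfcp2l1 fell by 0.31. Esrrb, at 205, 246 and 252 FPKM at 0 mM and 185, 169.6 and 185 FPKM at 80 mM, fell by 0.37.

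Primed-state genes also split, 5 of 15 members of at least 1 FPKM at 0 mM higher and 9 lower. Otx2, the homeobox factor of formative and primed cells, was at 4.15, 3.69 and 3.65 FPKM at 0 mM and 14.3, 12.8 and 12.1 FPKM at 80 mM (log2 difference 1.54 ± 0.072 SE, adjusted p = 1.59e-07), and the de novo DNA methyltransferase Dnmt3b rose by 0.53. Lefty1 was at 8.17, 8.86 and 9.28 FPKM at 0 mM and 2.11, 2.48 and 2.79 FPKM at 80 mM and Zic2 at 12.6, 12.4 and 12.7 FPKM at 0 mM and 5.31, 6.12 and 6.64 FPKM at 80 mM, and both fell. Fgf5, a standard marker of primed cells, was not tested, at 0.163, 0.0574 and 0.0745 FPKM at 0 mM and 0.0339, 0 and 0 FPKM at 80 mM.

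**Figure D3:**
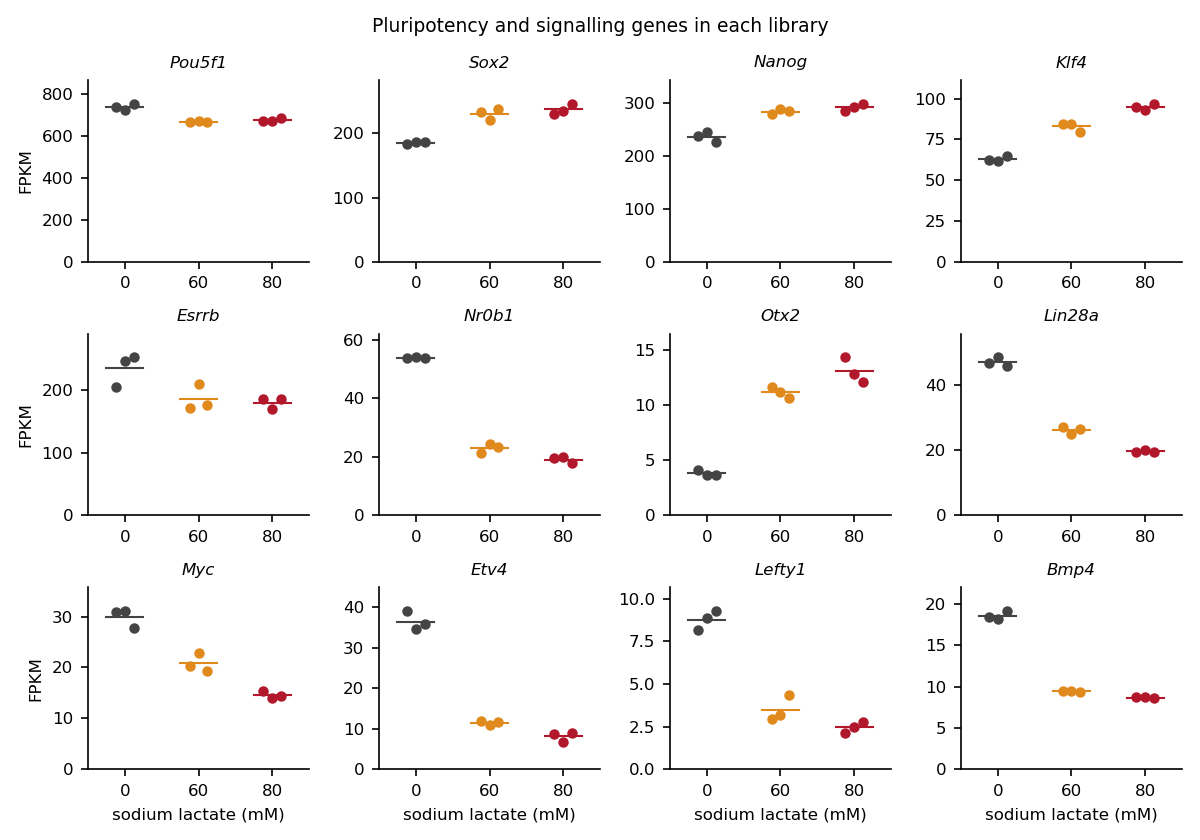
FPKM (vertical axes start at 0) of 12 pluripotency and signalling genes at 0, 60 and 80 mM sodium lactate, drawn at even spacing. Points are libraries and bars are means of 3; Nanog and Klf4 rise while Lin28a, Myc, Etv4 and Bmp4 fall at both doses.

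Listed repressors of two-cell genes and chromatin regulators gave 7 of 37 members higher and 15 lower, with a median of -0.07. Over all genes tested 30% were higher and 23.1% lower. The largest fall on this list, -1.22, was that of Lin28a, which encodes the RNA-binding protein named above. Trim28, the KAP1 corepressor of endogenous retroviruses, was at 612, 616 and 627 FPKM at 0 mM and 758, 752 and 753 FPKM at 80 mM and rose by 0.29. Kdm1a, the histone demethylase LSD1, rose by 0.22. Chaf1a, a subunit of the chromatin assembly factor CAF-1, did not pass (29.9, 30.0 and 29.7 FPKM at 0 mM and 31.6, 30.7 and 31.0 FPKM at 80 mM). Uhrf1, which brings maintenance methylation to replicated DNA, was at 201, 195 and 203 FPKM at 0 mM and 129, 119 and 122 FPKM at 80 mM (log2 difference -0.69 ± 0.032 SE, adjusted p = 1.49e-07), and Dnmt1 fell by 0.32. Dnmt3l, the cofactor of de novo methylation, fell from 207 ± 5.5 FPKM at 0 mM to 114 ± 2.9 FPKM at 80 mM (SD, n = 3). Uhrf2, Dnmt3a and Tet2 rose, by 0.91, 0.48 and 0.40, while Tet1 fell by 0.50. The DNA methylation list held 7 of 17 members higher and 4 lower.

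Glucose carriers rose while much of the glycolytic pathway fell. Slc2a3 (GLUT3) was at 196, 183 and 183 FPKM at 0 mM and 376, 375 and 364 FPKM at 80 mM (log2 difference 0.98 ± 0.033 SE, adjusted p = 1.95e-08), and Slc2a1 (GLUT1) at 60.1, 57.1 and 60.3 FPKM at 0 mM and 108, 107 and 108 FPKM at 80 mM (log2 difference 0.85 ± 0.029 SE, adjusted p = 2.35e-08). Every treated library exceeded every control for both carriers. Of 17 glycolytic enzymes of at least 1 FPKM at 0 mM, 4 were higher and 9 lower, with a median of -0.13. Eno1 was at 585, 627 and 648 FPKM at 0 mM and 438, 416 and 422 FPKM at 80 mM, Aldoa fell by 0.55, Gapdh fell by 0.32 and Hk2 fell by 0.49. Hk1, the other main hexokinase, rose by 0.78. The pyruvate kinase Pkm was at 757, 777 and 810.1 FPKM at 0 mM and 738, 743 and 750.1 FPKM at 80 mM and did not pass.

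Genes that carry or convert lactate and pyruvate gave 9 of 22 members of at least 1 FPKM at 0 mM higher and 10 lower. Both main lactate dehydrogenase subunits rose slightly: Ldha was at 300.1, 336 and 342 FPKM at 0 mM and 405, 427 and 414 FPKM at 80 mM and Ldhb at 25.8, 23.5 and 24.1 FPKM at 0 mM and 29.8, 29.4 and 29.7 FPKM at 80 mM. The carrier Slc16a1 (MCT1) rose by 0.13, and its chaperone Bsg (basigin) by 0.32. Around pyruvate dehydrogenase, the kinase Pdk1 that switches it off was at 8.76, 8.36 and 9.28 FPKM at 0 mM and 4.22, 3.71 and 3.73 FPKM at 80 mM (log2 difference -1.004 ± 0.072 SE, adjusted p = 2.51e-06), the phosphatase Pdp2 that switches it on rose by 0.86, and the catalytic subunit gene Pdha1 fell by 0.48. Me1, which makes pyruvate and NADPH from malate, rose by 0.74.

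The study's title names lactylation of splicing factors, so enzymes of that mark and the splicing machinery were listed. Of 11 genes reported to add lactyl groups, 1 was higher and 8 lower, with a median of -0.29. Ep300 was the member that rose, by 0.18, and it missed the threshold without 80 mM replicate 1 or replicate 2 (adjusted p = 0.0667 and 0.0545, limma). Kat2b was at 18.5, 17.9 and 17.5 FPKM at 0 mM and 10.4, 10.9 and 10.3 FPKM at 80 mM (log2 difference -0.72 ± 0.049 SE, adjusted p = 1.83e-06), and Aars, an alanyl-tRNA synthetase also reported to transfer lactyl groups, fell by 0.44. Among 9 erasers of at least 1 FPKM at 0 mM, 3 were higher and 2 lower. Hdac1 rose by 0.34, and Hdac2 (71.4, 72.5 and 69.4 FPKM at 0 mM and 73.5, 70.6 and 68.2 FPKM at 80 mM) and Hdac3 (31.7, 32.6 and 33.2 FPKM at 0 mM and 31.2, 32.3 and 29.4 FPKM at 80 mM) did not pass.

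Splicing genes shifted little, with more members lower than higher. The core spliceosome list gave 8 of 73 higher and 28 lower, with a median of -0.07, and none differed by 1 or more and passed. Its lowest value, -1.98, belonged to a member that did not pass. Under quantile normalization its counts were 13 and 25. Of the fifth of tested genes with the highest mean level, 37.3% were lower and 25.1% higher. The lower share of the core spliceosome list, 38.4%, was close to that of these highly expressed genes. Whether splicing genes differ from other genes of their level was not tested. Prpf31, a component of the tri-snRNP, was at 45.6, 44.8 and 49.4 FPKM at 0 mM and 32.7, 31.9 and 31.4 FPKM at 80 mM, and Cdc5l, of the Prp19 complex, rose by 0.59. SR proteins, hnRNPs and their kinases gave 12 of 68 members of at least 1 FPKM at 0 mM higher and 29 lower, with a median of -0.11. Hnrnph2 was at 37.1, 39.6 and 34.9 FPKM at 0 mM and 20.3, 19.9 and 21.1 FPKM at 80 mM (log2 difference -0.83 ± 0.055 SE, adjusted p = 1.44e-06), and Hnrnpm fell by 0.35. Srsf2 fell by 0.16 and Srsf7 fell by 0.19, while Srsf1 (93.7, 99.1 and 82.8 FPKM at 0 mM and 80.8, 88.4 and 93.4 FPKM at 80 mM), Hnrnpa1 and U2af2 did not pass. On the SR and hnRNP list Rbm47 was the exception in size, at 5.34, 4.68 and 6.34 FPKM at 0 mM and 15.8, 14.99 and 16.7 FPKM at 80 mM (log2 difference 1.39 ± 0.11 SE, adjusted p = 4.54e-06). These are transcript levels, and neither splicing nor lactylation was measured in the table used here.

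Most listed genes of amino acid supply and tRNA charging fell. The transcription factor ATF4 switches on transporters, synthetic enzymes and tRNA synthetases when amino acids run short. Of 29 tested genes on its list, 20 were lower and 3 higher, with a median of -0.29, and of 20 aminoacyl-tRNA synthetases of the cytosol 14 were lower and none higher, with a median of -0.30. All genes tested gave 23.1% lower and 30% higher. Leaving out any 1 of the 6 libraries gave 14 lower synthetases each time. At 60 mM the same lists gave 23 lower with 1 higher, and 14 lower with 1 higher.

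Atf4 itself was at 129, 120.1 and 131 FPKM at 0 mM and 102, 101 and 107 FPKM at 80 mM (log2 difference -0.29 ± 0.038 SE, adjusted p = 1.40e-04). Among transporters, Slc7a3, a carrier of arginine and lysine, was at 61.9, 64.6 and 65.4 FPKM at 0 mM and 27.7, 26.5 and 29.1 FPKM at 80 mM (log2 difference -1.18 ± 0.043 SE, adjusted p = 3.37e-08), and Slc7a5 fell by 0.57. The serine pathway enzymes Psat1 and Shmt2 fell from 91.7 ± 2.9 FPKM at 0 mM to 67.7 ± 1.3 FPKM at 80 mM and from 90.3 ± 3.5 FPKM at 0 mM to 56.9 ± 1.3 FPKM at 80 mM (SD, n = 3). Nupr1, a stress-induced chromatin protein, had the lowest value of the tested list and fell by 1.28. Asns, the asparagine synthetase often used as a readout of this response, was at 257, 251 and 262 FPKM at 0 mM and 241, 249 and 248 FPKM at 80 mM and did not pass, nor did Mthfd2 or Ddit3. Ddit4, an inhibitor of mTORC1, was the clear exception, at 6.43, 6.66 and 5.84 FPKM at 0 mM and 17.0, 17.6 and 17.3 FPKM at 80 mM (log2 difference 1.33 ± 0.055 SE, adjusted p = 7.21e-08). Of the synthetases, Lars fell by 0.64, Nars fell by 0.60 and Cars fell by 0.60.

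**Figure D4:**
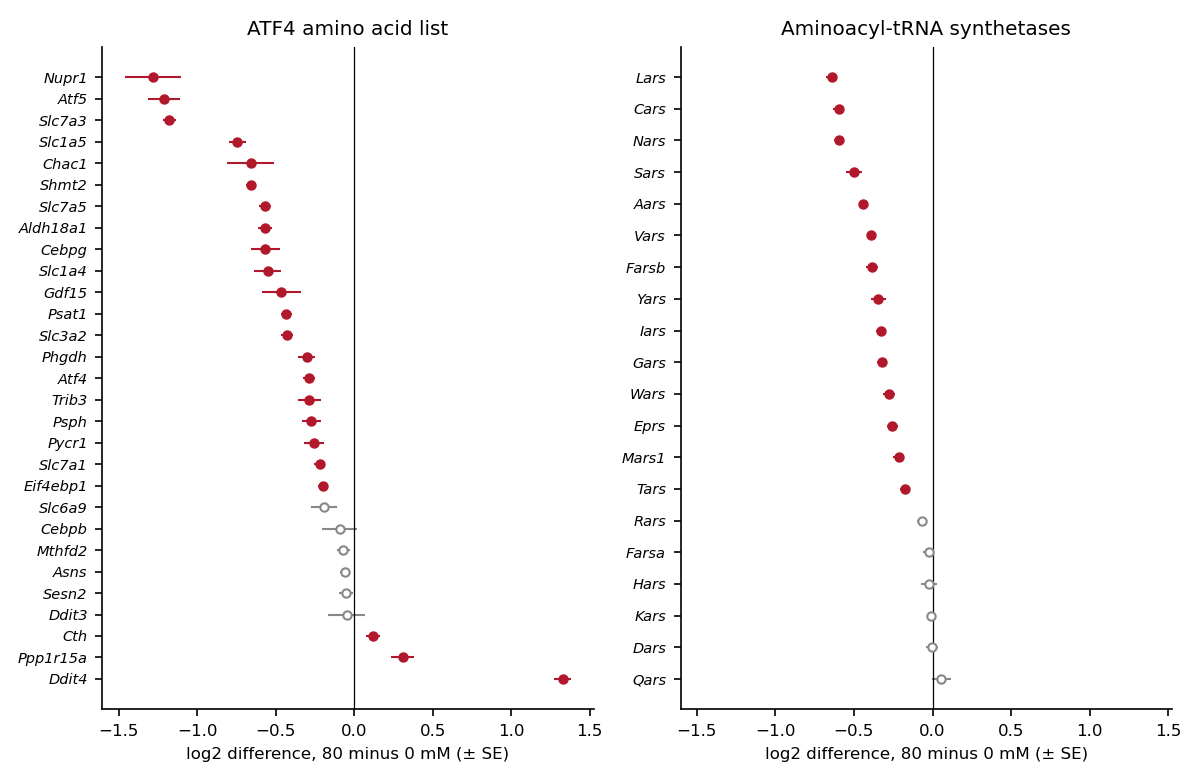
Log2 difference between 80 mM and 0 mM with its standard error for the 29 tested members of the ATF4 list (left) and 20 aminoacyl-tRNA synthetases (right). Filled points passed the test; nearly all filled points lie left of 0, and Ddit4 lies farthest to the right.

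Promoters of these lists were searched for the CARE motif that ATF4 and its partners bind (TGATGNAA, both strands, from 250 bases before to 50 after the start). It was in 5 of 13 synthetase promoters (38.5%) and in 6 of 24 promoters of the ATF4 list (25%), against 2.08% of the 9368. The lists hold genes of the kind that ATF4 switches on, so a high share follows from their make-up and is no result about lactate. Among all genes that passed, the motif was in 2.26% of 2253 promoters of lower genes and 1.98% of 2931 of higher genes. The windows below are printed 5′ to 3′ on the gene's strand, from 250 bases before the start, with the match in capitals, because they let a reader set the motif beside the level. They were picked for holding a match, and Asns is the member of the set that did not pass.
Aars, chr8:111033592-111033841, plus strand: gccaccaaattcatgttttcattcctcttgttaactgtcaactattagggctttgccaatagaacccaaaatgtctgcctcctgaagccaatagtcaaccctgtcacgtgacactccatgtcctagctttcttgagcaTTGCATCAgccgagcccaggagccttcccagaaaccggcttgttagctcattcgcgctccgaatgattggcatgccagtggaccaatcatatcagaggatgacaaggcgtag
Tars, chr15:11399659-11399908, minus strand: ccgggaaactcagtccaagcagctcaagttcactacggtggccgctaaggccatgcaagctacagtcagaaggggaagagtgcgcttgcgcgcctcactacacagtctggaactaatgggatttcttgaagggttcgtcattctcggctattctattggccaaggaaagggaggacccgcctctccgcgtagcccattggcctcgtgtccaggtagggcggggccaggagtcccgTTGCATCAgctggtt
Nupr1, chr7:126625471-126625720, minus strand: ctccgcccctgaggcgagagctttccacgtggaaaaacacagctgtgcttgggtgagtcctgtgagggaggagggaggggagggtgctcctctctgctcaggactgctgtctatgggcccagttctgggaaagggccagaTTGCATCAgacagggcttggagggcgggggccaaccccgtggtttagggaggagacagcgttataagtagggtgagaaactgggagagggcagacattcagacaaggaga
Pycr1, chr11:120643749-120643998, minus strand: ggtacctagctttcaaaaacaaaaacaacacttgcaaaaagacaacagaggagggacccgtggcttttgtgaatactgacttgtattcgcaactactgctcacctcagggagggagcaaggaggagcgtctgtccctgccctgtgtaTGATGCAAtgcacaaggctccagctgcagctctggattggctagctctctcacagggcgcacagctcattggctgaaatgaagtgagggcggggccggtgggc
Asns, chr6:7693210-7693459, minus strand: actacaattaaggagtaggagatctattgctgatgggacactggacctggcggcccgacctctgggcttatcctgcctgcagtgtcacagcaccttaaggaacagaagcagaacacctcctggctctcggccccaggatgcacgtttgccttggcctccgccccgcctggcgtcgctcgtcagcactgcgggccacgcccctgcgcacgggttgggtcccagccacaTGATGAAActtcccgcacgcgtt
The match begins 112 bases before the start in Aars, 15 in Tars, 110 in Nupr1, 103 in Pycr1 and 23 in Asns. Their log2 differences were -0.44, -0.18, -1.28, -0.26 and -0.06, so genes with a match to the same motif ranged from the lowest value of the list to one that did not pass. A match is a description of the sequence and shows no binding.

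Among genes linked to salt and osmotic load, more rose than fell. Of 18 osmotic stress genes of at least 1 FPKM at 0 mM, 8 were higher and 2 lower, and of 15 ion pumps and exchangers 9 were higher and 1 lower, with a median of 0.13. All genes of that level gave 27.5% higher and 25.7% lower. Under median-of-ratios scaling the pumps gave 8 higher and 3 lower. Sgk1, a kinase that stimulates sodium transport, was at 98.1, 107 and 99.96 FPKM at 0 mM and 209.8, 221 and 208 FPKM at 80 mM (log2 difference 1.06 ± 0.038 SE, adjusted p = 3.04e-08). Aqp3, a water and glycerol channel, was at 51.8, 55.0 and 57.7 FPKM at 0 mM and 84.3, 84.1 and 83.5 FPKM at 80 mM, and the anion exchangers Slc4a2 and Slc4a3 rose by 0.53 and 0.80. The sodium pump beta subunit gene Atp1b1 rose by 0.30. Slc6a12, the betaine carrier, went from 0.164, 0.133 and 0.240 FPKM to 1.49, 1.61 and 1.92 FPKM and was below 1 FPKM in every other library. Nfat5, the factor that responds to high salt, did not pass (11.8, 7.40 and 7.81 FPKM at 0 mM and 8.48, 7.04 and 7.24 FPKM at 80 mM), nor did the taurine carrier Slc6a6, and the aldose reductase gene Akr1b3 fell by 0.26.

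Growth-related genes fell by small amounts in large numbers. Replication genes gave 27 of 41 lower and 3 higher, mitotic genes 24 of 38 lower and 4 higher, and ribosome biogenesis genes 23 of 35 lower and 3 higher, with medians of -0.16, -0.16 and -0.20. Of all genes tested 23.1% were lower and 30% higher, and of the fifth with the highest mean level 37.3% and 25.1%. Whether these lists differ from other genes of their level was not tested. Without 80 mM replicate 1, ribosome biogenesis had 1 higher member. Pcna, the sliding clamp, was at 249.60, 249 and 250.04 FPKM at 0 mM and 169, 174 and 181 FPKM at 80 mM (log2 difference -0.51 ± 0.030 SE, adjusted p = 7.24e-07), and Pola1, the catalytic subunit of the priming polymerase, fell by 0.88. Top2a fell by 0.58 and Mki67 fell by 0.57, but Cdk1 (42.4, 41.2 and 36.6 FPKM at 0 mM and 41.9, 48.7 and 41.5 FPKM at 80 mM) and Mcm2 did not pass and Pttg1, the securin gene, rose by 0.86. Of the nucleolar genes, Gnl3 fell by 0.48 and Npm1 fell by 0.21. Cyclin D1 (Ccnd1) fell from 19.14 ± 0.19 FPKM at 0 mM to 8.50 ± 0.46 FPKM at 80 mM (SD, n = 3, log2 difference -1.09), and Cdk4 fell by 0.50. The cytosolic ribosomal proteins showed no common direction, with 16 of 80 higher and 14 lower, 26 and 7 under quantile normalization and 12 and 18 under median-of-ratios scaling, and without 0 mM replicate 3 the lower count was 9.

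Nuclear genes of oxidative phosphorylation also fell by small amounts, 43 of 75 lower and 7 higher, with a median of -0.14, and without 80 mM replicate 3 the higher count was 4. The shares over all genes tested were 23.1% lower and 30% higher. Cox8a was at 195, 204 and 208 FPKM at 0 mM and 161, 159.5 and 161 FPKM at 80 mM, and Sdha fell by 0.18, while Cox4i1 did not pass (447, 445 and 459.7 FPKM at 0 mM and 437, 445 and 442 FPKM at 80 mM). Transcripts of the mitochondrial genome gave 2 of 13 higher and 3 lower, of which mt-Cytb fell by 0.47 and mt-Co1 rose by 0.19. The 2 higher transcripts became 1 without 0 mM replicate 1 or 3, or without 80 mM replicate 2 or 3.

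Stress programmes other than the amino acid response did not move as one. Of 27 tested targets of p53, 14 were higher and 2 lower, with a median of 0.21, against 30% and 23.1% of all genes tested. Cdkn1a, the p21 cell cycle inhibitor, was at 83.5, 82.3 and 76.8 FPKM at 0 mM and 124, 131 and 135 FPKM at 80 mM (log2 difference 0.68 ± 0.067 SE, adjusted p = 2.07e-05), Mdm2 rose by 0.45, and Pmaip1, which encodes the cell death protein NOXA, rose from 11.7 ± 1.7 FPKM at 0 mM to 30.6 ± 1.3 FPKM at 80 mM (SD, n = 3). The p53 target Bbc3 (PUMA) did not pass. Of 22 NRF2 targets, 13 were lower and 5 higher: Nqo1 fell by 0.50 and Nfe2l2, the gene of NRF2 itself, fell by 0.44, while Hmox1 rose by 0.39. The unfolded protein response gave 6 of 23 higher and 4 lower, with its chaperone Hspa5 at 183, 186 and 187 FPKM at 0 mM and 180.5, 192 and 184 FPKM at 80 mM. Heat shock genes gave 8 of 22 higher and 7 lower, and Hspa1a, the inducible HSP70, rose at a low level, from 1.73, 1.89 and 1.52 FPKM to 4.38, 3.58 and 3.78 FPKM. Hypoxia genes gave 9 of 20 members of at least 1 FPKM at 0 mM higher and 5 lower, with Vegfa up by 0.66 and Ak4 up by 1.25 but Pdk1 down. On the whole hypoxia list the 5 lower members became 3 without 0 mM replicate 1 or without 0 mM replicate 2.

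Targets of growth factor signals fell in part. In the FGF and ERK list, 9 of 17 members of at least 1 FPKM at 0 mM were lower and 5 higher. Etv4, an ETS factor induced by ERK, was at 39.1, 34.5 and 35.8 FPKM at 0 mM and 8.65, 6.59 and 8.96 FPKM at 80 mM (log2 difference -2.06 ± 0.096 SE, adjusted p = 1.57e-07). Of the feedback inhibitors of the pathway, Spry4 fell by 1.09 and Dusp6 fell by 0.84, but Spry2, of the same family as Spry4, rose by 0.50 and Etv5, the close relative of Etv4, did not pass (109.6, 105 and 106 FPKM at 0 mM and 103, 101 and 103 FPKM at 80 mM). The ligand Fgf4 rose by 0.32. The secreted factors listed for the Nodal and BMP pathways include the Nodal inhibitors Lefty1 and Lefty2 beside activating ligands. Of the 7 tested, none was higher and 6 were lower, and the inhibitor Lefty1 had the lowest value, -1.50. Bmp4 was at 18.4, 18.2 and 19.2 FPKM at 0 mM and 8.70, 8.73 and 8.58 FPKM at 80 mM (log2 difference -1.02 ± 0.043 SE, adjusted p = 8.57e-08), Lefty2 fell by 0.29, and Nodal (25.3, 23.6 and 23.4 FPKM at 0 mM and 24.8, 26.2 and 25.5 FPKM at 80 mM) was the one that did not pass. Among receptors and targets, 7 of 18 were higher and 3 lower, of which Id1 fell by 0.50 and Id2 rose by 1.10. WNT genes gave 2 of 11 members of at least 1 FPKM at 0 mM higher and 4 lower, with the target Sp5 at 6.64, 7.03 and 7.66 FPKM at 0 mM and 2.09, 2.91 and 3.20 FPKM at 80 mM and Axin2 not passing. On the whole WNT list the higher count of 4 became 2 without 80 mM replicate 1 or without 80 mM replicate 3.

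Summed markers of trophectoderm and primitive endoderm were higher at 80 mM, and those of neural cells and mesoderm lower. The summed level of 10 trophectoderm markers was 28.2 to 28.4 FPKM at 0 mM and 41.3 to 45.8 FPKM at 80 mM. Of these, 3 rose and 1 fell: Krt18 rose from 2.21 ± 0.17 FPKM at 0 mM to 7.32 ± 1.1 FPKM at 80 mM (SD, n = 3), Gata3 rose by 1.25, and Cdx2, the factor that sets this lineage, was at 1.76, 1.67 and 1.57 FPKM at 0 mM and 5.18, 4.96 and 5.01 FPKM at 80 mM. Eomes fell by 0.37. Primitive endoderm markers summed to 19.2 to 19.7 FPKM at 0 mM and 26.7 to 29.7 FPKM at 80 mM, with 8 of 10 below 1 FPKM in every library, Gata6 at 0.121, 0.172 and 0.261 FPKM at 0 mM and 0.609, 0.310 and 0.347 FPKM at 80 mM and Dab2 at 1.16, 1.57 and 1.52 FPKM at 0 mM and 7.76, 7.78 and 7.25 FPKM at 80 mM. Neural markers summed to 46.8 to 49.8 FPKM at 0 mM and 25.9 to 29.1 FPKM at 80 mM. Most of that sum was Tubb3, at 40.9, 43.7 and 42.8 FPKM at 0 mM and 17.4, 18.1 and 21.1 FPKM at 80 mM. The neural markers did not fall as a set: of 8, 4 had the higher mean at 80 mM. Among them 1 passed as higher and 2 as lower, and 5 were below 1 FPKM in every library. Of the 8 mesoderm markers 7 were below 1 FPKM in every library and none passed, with sums of 1.55 to 2.51 FPKM at 0 mM and 0.696 to 1.28 FPKM at 80 mM. Thy1, on the fibroblast list, was at 0.553, 0.491 and 0.456 FPKM at 0 mM and 4.18, 3.98 and 4.13 FPKM at 80 mM, while Col1a1 was at 0.155, 0.0510 and 0.0786 FPKM at 0 mM and 0.125, 0.0878 and 0.117 FPKM at 80 mM. Cdx2, Dab2, Eomes, Gata3, Tubb3 and Thy1 were named after their values were seen, and whether other cell types took part in any result was not tested.

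On the germline list more genes rose than fell. Of 15 members of at least 1 FPKM at 0 mM, 8 were higher and 2 lower, with a median of 0.49, and 6 further tested members had under 1 FPKM in at least 1 control library. Over all genes of at least 1 FPKM in each 0 mM library, 27.5% were higher and 25.7% lower. Dazl, a germ cell RNA-binding protein, was at 3.58, 3.91 and 3.73 FPKM at 0 mM and 8.61, 10.4 and 8.67 FPKM at 80 mM (log2 difference 1.11 ± 0.10 SE, adjusted p = 1.11e-05). Tex19.1, which acts on retrotransposons in the germline, rose from 21.6 ± 1.5 FPKM at 0 mM to 41.6 ± 0.78 FPKM at 80 mM (SD, n = 3), and Rec8, the meiotic cohesin, rose by 0.89. Tex14, a gene of intercellular bridges in the testis, fell by 1.32.

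Values at 60 mM rest on the same controls and are set beside those at 80 mM only. The median of the 32 tested two-cell genes was 0.97 at 60 mM and 1.51 at 80 mM. At 60 mM 3117 genes were higher and 2474 lower than at 0 mM, 42.1% of those tested. Between 80 and 60 mM 539 genes (4.06%) were higher and 280 (2.11%) lower, 6.17% together. Of the 32 tested two-cell genes, 24 were higher at 80 mM than at 60 mM and none lower. Trim43a was at 24.5, 27.5 and 25.9 FPKM at 60 mM, and differed between 80 and 60 mM by 0.64 (adjusted p = 0.00721). Otx2, Lgals3 and Shmt2 did not pass between 80 and 60 mM (11.7, 11.2 and 10.6, 8.13, 7.70 and 8.15 and 57.6, 57.7 and 57.6 FPKM at 60 mM). Synthetases and oxidative phosphorylation gave 3 of 20 and 0 of 75 lower at 80 than at 60 mM.

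**Figure D5:**
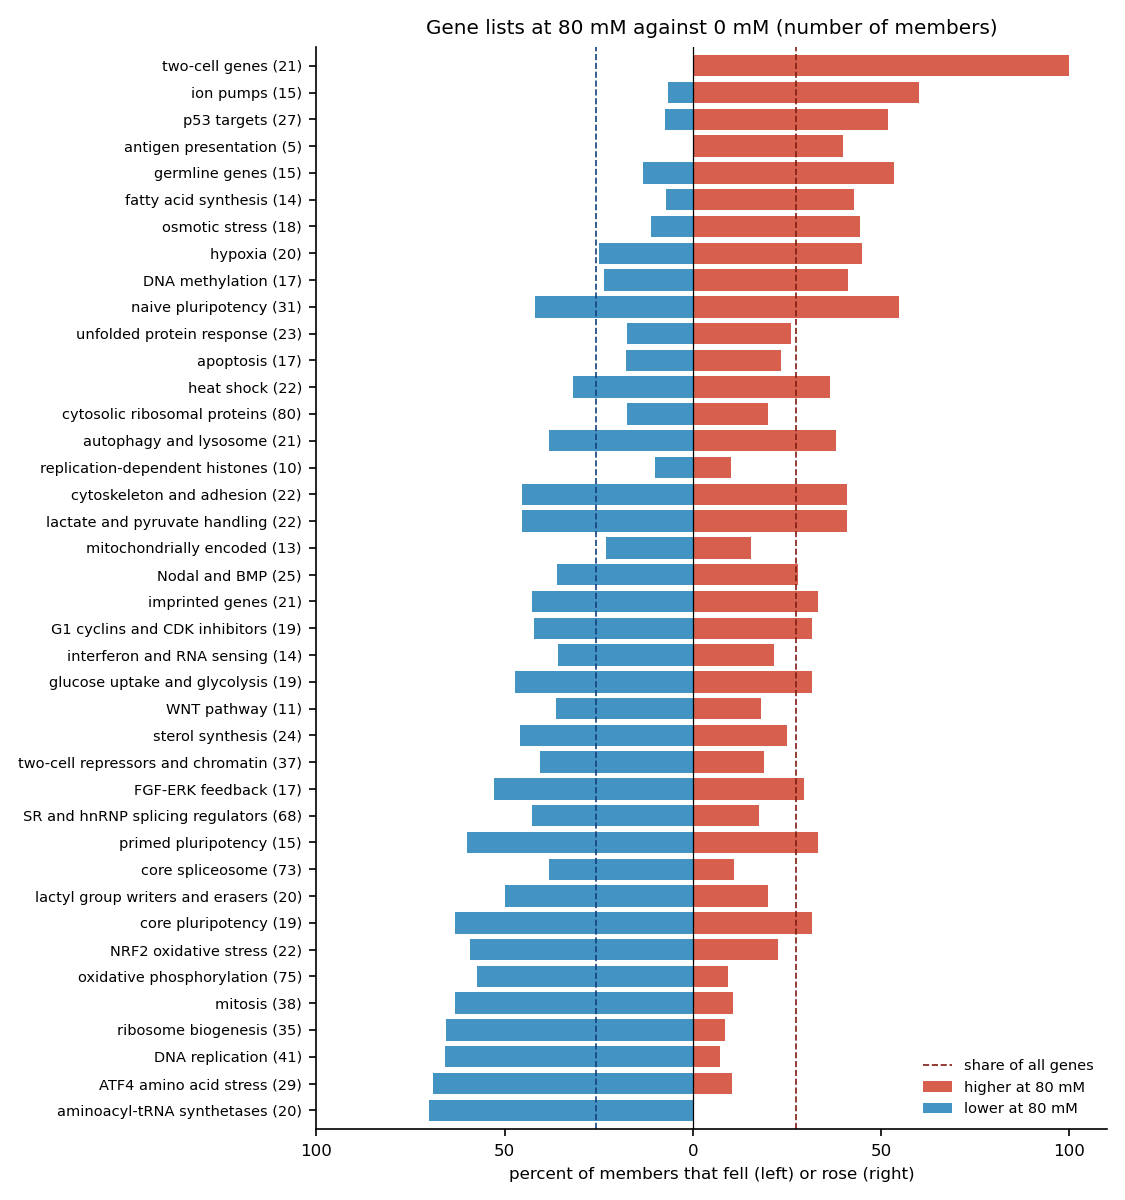
Share of each list's members that fell (left, blue) or rose (right, red) at 80 mM against 0 mM, over members with at least 1 FPKM in each 0 mM library, whose number stands in brackets. Dashed lines mark the shares over all 11890 such genes, 25.7% lower and 27.5% higher; two-cell genes stand at the top and aminoacyl-tRNA synthetases at the bottom.

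The direction of the calls varied with the level of the gene. In the fifth of genes with the highest mean level, 25.1% were higher and 37.3% lower, and in the fifth with the lowest level 31.8% were higher and 12.6% lower. FPKM values are shares of a library, so a rise in some genes lowers the share of others, and no spike-in or cell count was used here to set an absolute scale.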

How the data were processed

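Gene-level FPKM values, normalized to transcript length and library size, were deposited by the authors for 9 lactate and 12 cell-state libraries in 2 tables; per the submitters' processing notes, HISAT2 2.0.4, StringTie 2.1.4 and the mm10 build were used, and the sources used here do not say how strand and repeated genes were handled. Entries sharing a name were summed (112 names in the lactate table). Genes reaching 1 FPKM in 3 or more of 9 libraries were tested as log2(FPKM + 1) with limma 3.58.1 (R 4.3.3), with a mean trend, all 3 doses in 1 fit, two-sided tests and Benjamini-Hochberg adjustment over 13271 genes; the script was tested on simulated data. Depth is unknown, so no counting interval can be given. The cell-state table was fitted apart.

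Members and the 40 gene lists were chosen with earlier results of these data known. Named genes are the 15 largest rises and 15 largest falls among genes that passed, with a mean of 5 FPKM or more in the higher group, non-overlapping groups and no predicted-gene name, the 6 largest changes each way in FPKM, and per list its marked anchors and up to 4 members with the smallest adjusted p; other genes named were chosen after their values were seen, or for a promoter match. Of 1201 list symbols, 32 were found by an older symbol and 32 not found, mainly histones. Promoters are RefSeq windows (GRCm38.p6), positions GENCODE M21. Alternatives were 2 other scalings, 2 pseudocounts, 2 filters, a replicate block, other variance models and leaving out libraries.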

Additional observations from a re-analysis of the deposited data

How the results depend on the processing

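Of 167 called genes named in the text, 164 kept their call and direction under every alternative that gave them a value, 3 missed the threshold under at least 1, and none changed direction. Commd1b missed it with no filter on low values (adjusted p = 0.0604), Eef1a1 under quantile normalization (adjusted p = 0.662), and Ep300 without 80 mM replicate 1 or without 80 mM replicate 2 (adjusted p = 0.0667 and 0.0545, limma). Of the named genes that did not pass, 5 passed under at least 1 alternative. Asns and Pkm did so under median-of-ratios scaling at -0.08 and -0.09, and Pkm also with the replicate block at -0.07 and without 0 mM replicate 1 at -0.09. Chaf1a did so under quantile normalization at 0.08, Axin2 without 0 mM replicate 3 or 80 mM replicate 1 at -0.23, and B2m without 0 mM replicate 2 or 80 mM replicate 2 at 0.23 and 0.27.

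Leaving out any 1 of the 6 libraries gave 3510 to 3673 higher and 2675 to 2814 lower genes, and 31 to 32 higher two-cell genes. A filter of 5 FPKM left 2626 higher genes, with fewer genes tested. A minimum change of 1 left 436 higher and 137 lower genes, and over all lists 49 higher and 22 lower members, against 289 and 403. With a minimum of 2 in the cell-state table, which defines fewer genes, 26 of the genes higher in 2CLCs were lower at 80 mM against 86. The genes higher in EpiSCs then gave 144 higher and 42 lower against 556 and 227, and those higher in MEFs 397 and 138 against 929 and 315. Calls that were higher made up 56.5% of all calls, 53.5% under median-of-ratios scaling and 49.5% under quantile normalization.

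Some genes near 0 that did not pass changed sign. Under quantile normalization Etv5 was at 0.0009, Hdac2 at 0.0162, Hnrnpa1 at 0.0146, Mcm2 at 0.0135 and U2af2 at 0.0667, and under median-of-ratios scaling Hspa5 was at -0.0178. Leaving out 1 library gave ranges of -0.0345 to 0.0186 for Hdac2, -0.0433 to 0.0038 for Hnrnpa1 and -0.0233 to 0.0202 for Hspa5.

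The replicate numbers are shared between groups, but deviations of same-numbered 0 mM and 80 mM libraries correlated at -0.0143, 0.0243 and 0.0014. No shared deviation was thus seen, but these values cannot tell whether same-numbered libraries were prepared together, which the labels do not say. With the replicate block 3928 genes were higher and 3025 lower. The files give no read counts, so the precision of low values is unknown.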

Other observations

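Sterol and fatty acid synthesis genes had medians of -0.03 and 0.04, against 0.03 over all genes tested. Of 24 sterol synthesis genes, 6 were higher and 11 lower: Fdps, which makes farnesyl diphosphate, rose by 0.48, while Hmgcs1, a synthase early in the pathway, fell by 0.28. Of 14 genes of fatty acid synthesis 6 were higher and 1 lower. Acss2, which activates acetate, was at 3.94, 4.19 and 3.84 FPKM at 0 mM and 6.48, 7.48 and 6.91 FPKM at 80 mM, the elongase Elovl6 rose by 0.63, and the desaturase Scd2 was the member that fell (log2 difference -0.40), while Fasn was at 75.6, 77.0 and 78.5 FPKM at 0 mM and 82.6, 79.6 and 78.1 FPKM at 80 mM and did not pass.

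Among RNA-sensing and interferon genes, 3 of 14 were higher and 5 lower. Beside Ddx58, Xaf1 was at 5.32, 7.31 and 7.47 FPKM at 0 mM and 1.59, 1.19 and 1.71 FPKM at 80 mM (log2 difference -1.62 ± 0.13 SE, adjusted p = 4.57e-06), while the antiviral membrane protein gene Bst2 rose by 0.56. The class I antigen gene H2-K1 was at 4.71, 5.75 and 6.24 FPKM at 0 mM and 12.1, 13.7 and 13.5 FPKM at 80 mM, and its light chain B2m, at 11.3, 13.1 and 12.4 FPKM at 0 mM and 15.2, 12.4 and 14.6 FPKM at 80 mM, did not pass. Autophagy and lysosome genes gave 8 of 21 higher and 8 lower. Tfeb, a main regulator of lysosome genes, fell from 17.4 ± 0.69 FPKM at 0 mM to 9.22 ± 0.74 FPKM at 80 mM (SD, n = 3), whereas the lysosomal protease Ctsl was at 63.2, 63.8 and 63.4 FPKM at 0 mM and 123, 120.4 and 118 FPKM at 80 mM (log2 difference 0.92 ± 0.028 SE, adjusted p = 1.04e-08) and the receptor Sqstm1 rose by 0.36. Of 17 apoptosis genes of at least 1 FPKM at 0 mM, 4 were higher and 3 lower. Cytoskeleton and adhesion genes gave 9 of 22 higher and 10 lower, with S100a6, a calcium-binding protein, at 2.85, 2.18 and 2.78 FPKM at 0 mM and 8.27, 9.27 and 7.63 FPKM at 80 mM.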
